A study of Mus musculus with 12 samples.

Results

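Immediate-early genes are transcribed within minutes of a stimulus without new protein synthesis, and most encode transcription factors. The 10 genes described here are the AP-1 subunits Fos, Fosb, Fosl2, Jun, Junb and Jund, the zinc finger factor Egr1, the short-lived response genes Ier2 and Ier3, and Myc. They were chosen by gene symbol: every probe set of the Affymetrix Mouse430_2 array annotated with one of these symbols alone was taken, which gave 13 of 45101 probe sets. Of these genes, 7 had 1 probe set and 3 (Fosl2, Jun and Jund) had 2. All 13 probe sets passed the filter on dim signals, and in the fit across 14568 genes each of the 10 genes was represented by its brighter probe set.

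The 12 arrays measured total liver RNA from C57Bl/6J mice that were 3 months old, with 4 groups of 3 animals that the labels call biological replicates. Control mice (labelled Fe+CRE+) and Ire1α conditional null mice (labelled Fe-CRE+) received vehicle (dextrose) or tunicamycin at 2 µg per gram of body weight by intraperitoneal injection, and livers were taken 8 h later. Both genotypes carried Cre. The sources used here name neither the promoter that drives Cre nor the part of the gene that was deleted. Tunicamycin blocks N-linked glycosylation and so causes unfolded protein to collect in the endoplasmic reticulum (ER). IRE1α, encoded by Ern1, is an ER membrane kinase and RNase that splices Xbp1 mRNA and can recruit TRAF2, which activates the JNK kinases.

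AP-1 is a dimer of a JUN protein with another JUN, a FOS protein or an ATF family member, and it binds TGANTCA or the related cAMP response element. JNK phosphorylates JUN, and JUN can act on its own gene through AP-1-like sites in its promoter. MYC pairs with MAX to bind E-boxes and raises genes of ribosome assembly, nucleotide synthesis and polyamine synthesis. The MXD proteins and MNT compete with MYC for MAX. In the liver many immediate-early genes also react to the handling of the tissue and to partial hepatectomy, so their level in vehicle-treated animals can vary.

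The RefSeq promoter table (GRCm38.p6, 250 bases before to 50 bases after the gene start) had an entry for 7 members. Of these, 3 are shown because they carry the listed motifs close to the start: Jun, Fos and Junb. Jun responded in both genotypes. Fos and Junb passed in neither genotype in the fit of all 12 quantile-normalised arrays without covariates or array weights. Fos passed in null livers under some alternative settings, given below. Capitals mark matches to the AP-1-like site TGACATCA, the CCAAT box and the TATA box TATAAA. Jun lies at chr4:95052173-95052472 on the minus strand, Fos at chr12:85473640-85473939 on the plus strand and Junb at chr8:84978699-84978998 on the minus strand. All are printed 5′ to 3′ on the strand of the gene.
Jun: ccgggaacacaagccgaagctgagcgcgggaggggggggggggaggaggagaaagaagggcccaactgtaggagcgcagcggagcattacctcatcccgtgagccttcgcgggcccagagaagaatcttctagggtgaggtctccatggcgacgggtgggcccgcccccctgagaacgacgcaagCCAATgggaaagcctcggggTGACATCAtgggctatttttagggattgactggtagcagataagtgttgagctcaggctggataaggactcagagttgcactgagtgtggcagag
Fos: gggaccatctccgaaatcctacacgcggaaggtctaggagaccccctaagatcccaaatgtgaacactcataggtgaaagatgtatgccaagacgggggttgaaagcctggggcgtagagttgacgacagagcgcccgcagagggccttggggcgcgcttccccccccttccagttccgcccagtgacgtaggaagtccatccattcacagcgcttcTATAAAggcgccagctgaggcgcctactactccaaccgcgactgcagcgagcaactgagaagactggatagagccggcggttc
Junb: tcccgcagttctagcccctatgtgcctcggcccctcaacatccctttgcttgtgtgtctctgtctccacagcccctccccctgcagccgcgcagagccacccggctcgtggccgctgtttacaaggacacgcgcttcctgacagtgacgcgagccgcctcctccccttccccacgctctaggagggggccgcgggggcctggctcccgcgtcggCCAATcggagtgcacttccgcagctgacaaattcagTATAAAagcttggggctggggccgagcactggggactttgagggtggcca
The Jun window held TGACATCA 45 to 38 bases before the gene start and CCAAT 65 to 61 bases before it. Searched on both strands, TGACATCA occurred in 3.62% of the 32851 promoter windows of the table, CCAAT in 37.4% and TATAAA in 13.6%. In Fos, TATAAA began 33 bases before the start, and in Junb it fell on bases 1 to 6 after it. None of the 7 windows held the AP-1 site TGANTCA (7.81% of all windows), the cAMP response element TGACGTCA (1.79%), the E-box CACGTG (7.15%), the CArG box bound by SRF (1.63%), the C/EBP-ATF element TGATGNAA (3.97%), the XBP1 and ATF6 element TGACGTG (2.01%) or the ER stress element (0.119%). A match describes the letters only, and no match says only that those letters are not in this window.

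Values below are normalised log2 intensities, log2(deposited intensity + 16) after quantile normalisation, and changes are differences on that scale, which understate the change of dim probe sets. Trimmed mean intensity per array ran from 228 to 303, and the 5′ to 3′ ratio of the Gapdh control probe sets, which falls as transcripts are shortened, ran from 0.181 to 0.774. The same ratio for actin did not overlap between the control groups, at 0.454, 0.719 and 1.10 under vehicle and 0.295, 0.299 and 0.389 under tunicamycin. In null livers it was 0.571, 0.296 and 0.633 under vehicle and 0.287, 0.434 and 0.205 under tunicamycin. The number of arrays limits the precision. Ern1 was read by 5 probe sets, and on each of them the genotypes overlapped under vehicle and under tunicamycin. Because the deleted part is not given, these probe sets do not check the genotype labels. The summed intensity of the 8 hepatocyte markers on the array lay between 79946 and 93317 in all arrays. Null tunicamycin replicate 2 carried kidney transcripts: 14 of 21 kidney markers were more than 1 log2 unit above the highest of the other 11 arrays, and their summed intensity was 41389 against 2058 and 2609 in null tunicamycin replicates 1 and 3. The bile duct marker sum on that array was also higher, 1044 against 197 and 147. Results for the 10 genes in null tunicamycin livers are therefore given with and without that array. Kupffer cell and macrophage markers, 11 on the array, summed to between 8309 and 14202 in control vehicle, 8846 and 12285 in control tunicamycin, 6497 and 10627 in null vehicle and 5232 and 11240 in null tunicamycin arrays. The 9 stellate cell and fibroblast markers summed to between 5054 and 7765, 5809 and 7615, 4772 and 6882, and 6317 and 9322 in the same order. Gene by gene, the median tunicamycin change of the 11 Kupffer cell and macrophage markers was -0.47 in control livers, with 3 positive. In null livers it was -0.53 (-0.61 without replicate 2), with 0 positive. Over all genes the medians were -0.11 and -0.07. At adjusted p under 0.05 limma called 1 lower in control and 2 lower in null livers, and 0 higher. The stellate cell and fibroblast medians were -0.21 and 0.08. Of the 7 neutrophil and monocyte markers on the array, 4 were in the dimmest 30%. The part of such cells in the results was not tested.

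**Figure D1:**
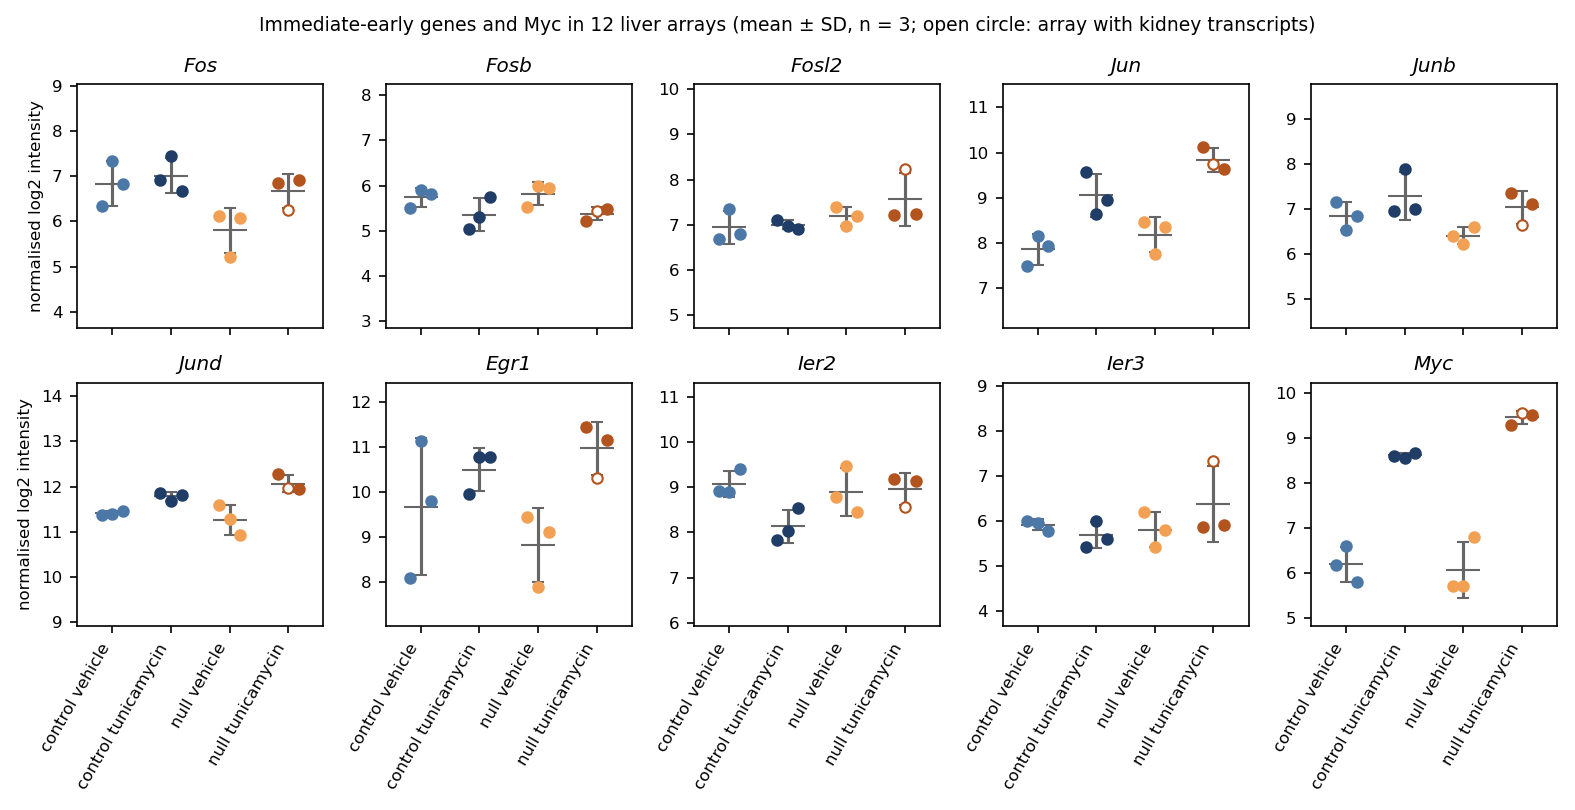
Normalised log2 intensity (y axis) of the 10 genes in each of the 12 arrays, by group (x axis); points are single livers, bars are the mean ± SD of 3 arrays, and the open circle is null tunicamycin replicate 2. Every y axis spans the same number of log2 units, and the 2 tunicamycin groups of Myc and Jun lie above both vehicle groups.

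Myc and Jun rose after tunicamycin in both genotypes. In control livers 2 of the 10 genes rose (Myc and Jun) and 1 fell (Ier2). In null livers 4 rose (Myc, Jun, Jund and Egr1) and none fell. Over all genes tested, 11.6% rose and 13.3% fell in control livers, and 7.59% rose and 9.23% fell in null livers (limma, Benjamini-Hochberg adjusted p under 0.05). The median change of the 10 genes was 0.28 in control and 0.71 in null livers, beside -0.11 and -0.07 over all genes. With array medians centred in place of quantile normalisation, 2100 genes rose and 1181 fell in control livers against 1693 and 1943, and 1256 rose and 703 fell in null livers against 1105 and 1344. With the values as deposited these counts were 2062 and 1068 in control and 1477 and 512 in null livers. With the actin ratio in the fit, 982 genes rose and 783 fell in control livers and 851 and 953 in null livers. Myc then changed by 2.45 in control livers and Jun by 1.55 (adjusted p = 0.00237 and 0.0159), and both stayed called. Groups did not overlap for 4 of the 10 genes in control livers and 7 in null livers, where 42.6% and 33.1% of all genes did not overlap. In bulk tissue, fewer cells of a type and less RNA per cell cannot be told apart.

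**Figure D2:**
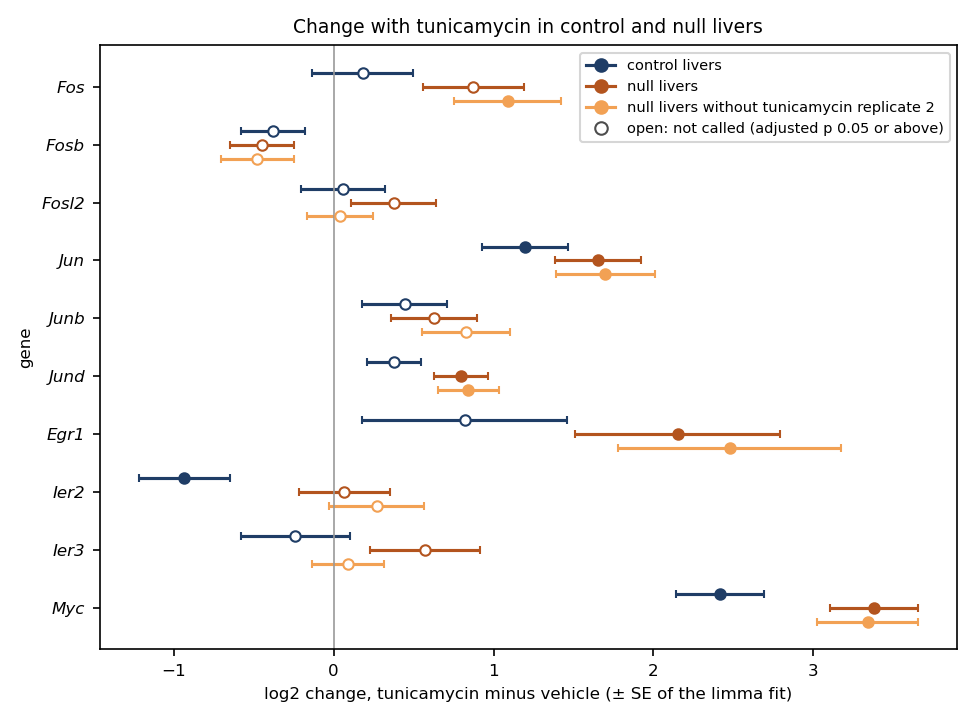
Change with tunicamycin (x axis, log2, tunicamycin minus vehicle) of each gene in control livers, in null livers and in null livers without tunicamycin replicate 2; bars are ± 1 SE of the limma fit and open points were not called. Myc changed by 2.42 in control and 3.38 in null livers, and Ier2 by -0.93 and 0.07.

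Among the FOS subunits, Fos itself read 6.34, 7.33 and 6.83 in control vehicle livers (replicates 1, 2 and 3) and 6.92, 7.45 and 6.68 in control tunicamycin livers. Null vehicle livers read 6.11, 5.22 and 6.07, and null tunicamycin livers 6.86, 6.25 and 6.91. The control groups overlapped throughout, whereas every null vehicle array lay below all null tunicamycin arrays and below all control vehicle arrays. The change was 0.18 ± 0.32 (SE; adjusted p = 0.724) in control livers and 0.87 ± 0.32 (adjusted p = 0.0827) in null livers, and neither passed the test. Without null tunicamycin replicate 2 the null change was 1.09 ± 0.33 and passed (adjusted p = 0.0480), and then 5 of the 10 genes rose in null livers, where 7.08% of all genes did. It also passed with the values as deposited (1.04, adjusted p = 0.0489), with array quality weights (0.96, adjusted p = 0.0393) and with the Gapdh 5′ to 3′ ratio as a covariate (0.94, adjusted p = 0.0141). Under vehicle, Fos was 1.03 ± 0.32 log2 units lower in null than in control livers, the only one of the 10 with an unadjusted p under 0.05, and this did not pass over all genes (adjusted p = 0.988). In that comparison limma called 0% of the 14568 genes, and 597 had an unadjusted p under 0.05. The other 9 genes differed by between -0.86 (Egr1) and 0.33 (Jun), and the median of the 10 was -0.13 beside 0.00 over all genes.

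Fosb encodes a close relative of FOS, and its probe set lay at the 44.9th percentile of mean level. It read 5.51, 5.90 and 5.81 in control vehicle, 5.03, 5.30 and 5.75 in control tunicamycin, 5.53, 5.99 and 5.95 in null vehicle and 5.21, 5.43 and 5.48 in null tunicamycin livers. Tunicamycin arrays were below all vehicle arrays in null livers, and overlapped them in control livers. The changes of -0.38 ± 0.20 in control and -0.45 ± 0.20 in null livers did not pass (adjusted p = 0.197 and 0.158), and the null change was -0.48 without replicate 2.

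Fosl2 encodes FRA-2, and its 2 probe sets gave different values. The brighter one read 6.67, 7.35 and 6.79 in control vehicle, 7.10, 6.98 and 6.91 in control tunicamycin, 7.39, 6.98 and 7.19 in null vehicle and 7.21, 8.23 and 7.24 in null tunicamycin livers. One array, null tunicamycin replicate 2 with its kidney transcripts, stood about 1 log2 unit above the other 2 of its group. The null change was 0.38 ± 0.26 with that array and 0.04 ± 0.21 without it. The other probe set read 7.27, 7.53 and 7.26 in control vehicle and 5.87, 6.66 and 6.26 in control tunicamycin livers. Those control groups did not overlap, and the change of -1.09 ± 0.35 missed the threshold in the fit of all 34945 probe sets (adjusted p = 0.0568). In null livers this probe set read 7.80, 7.30 and 6.10 under vehicle and 6.71, 6.78 and 7.03 under tunicamycin, a change of -0.22 ± 0.35 (adjusted p = 0.775), or -0.19 without replicate 2.

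Among the JUN subunits, Jun rose in both genotypes on both of its probe sets. The brighter one read 7.49, 8.15 and 7.94 in control vehicle and 9.57, 8.63 and 8.96 in control tunicamycin livers. In null livers it read 8.45, 7.75 and 8.35 under vehicle and 10.13, 9.75 and 9.63 under tunicamycin. Every tunicamycin array lay above every vehicle array, and the 3 null tunicamycin arrays lay above the 3 control ones. As deposited intensities the 4 group means were 203 ± 39.4, 591 ± 246, 254 ± 48.1 and 980.0 ± 266 (SD, n = 3), in the order control vehicle, control tunicamycin, null vehicle and null tunicamycin. The rise was 1.20 ± 0.27 (2.29-fold; limma adjusted p = 0.00675) in control and 1.65 ± 0.27 (3.14-fold; adjusted p = 0.00159) in null livers, and 1.70 ± 0.31 without null tunicamycin replicate 2 (adjusted p = 0.00368). The other probe set read 6.98, 7.69 and 7.83 in control vehicle, 8.78, 8.24 and 8.51 in control tunicamycin, 7.73, 7.35 and 7.26 in null vehicle and 9.50, 8.77 and 9.02 in null tunicamycin livers. There the 2 tunicamycin groups overlapped, and the rises were 1.01 ± 0.26 in control and 1.65 ± 0.26 in null livers (adjusted p = 0.0199 and 0.00200), and 1.82 without null tunicamycin replicate 2. In that fit 7.67% of all probe sets rose in control livers and 4.23% in null livers.

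Junb, whose product is a weaker activator than JUN at many sites, read 7.15, 6.55 and 6.85 in control vehicle and 6.97, 7.90 and 7.01 in control tunicamycin livers. It read 6.41, 6.22 and 6.60 in null vehicle and 7.35, 6.65 and 7.12 in null tunicamycin livers. The null groups did not overlap and the control groups did. Its changes of 0.44 ± 0.27 and 0.63 ± 0.27 did not pass (adjusted p = 0.259 and 0.135), nor did 0.83 ± 0.28 without null tunicamycin replicate 2 (adjusted p = 0.0658).

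Jund, the subunit that is expressed steadily in resting cells, was read at the 97.4th percentile of all probe sets. Its brighter probe set read 11.36, 11.40 and 11.46 in control vehicle, 11.87, 11.67 and 11.81 in control tunicamycin, 11.59, 11.28 and 10.93 in null vehicle and 12.27, 11.97 and 11.95 in null tunicamycin livers. Tunicamycin arrays were above vehicle arrays in both genotypes without overlap. The rise in null livers was 0.80 ± 0.17 (adjusted p = 0.00749) and 0.84 ± 0.19 without replicate 2 (adjusted p = 0.0130). In control livers the change was 0.38 ± 0.17 (adjusted p = 0.130), and it passed with centred array medians (0.58, adjusted p = 0.0283) and with the values as deposited (0.60, adjusted p = 0.0339). The other probe set was dim, between 5.29 and 5.94 on the 12 arrays, and changed by -0.13 in control and 0.12 in null livers (adjusted p = 0.741 and 0.782), or 0.03 without replicate 2.

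Egr1, a zinc finger factor that responds to growth factors and to serum, had the widest spread within groups of the 10 genes. It read 8.10, 11.13 and 9.80 in control vehicle and 9.95, 10.78 and 10.77 in control tunicamycin livers. It read 9.46, 7.89 and 9.11 in null vehicle and 11.44, 10.31 and 11.16 in null tunicamycin livers. Control vehicle replicate 2 was above every control tunicamycin array, while the null groups did not overlap. The standard deviation around the group means was 0.94 log2 units, at the 99.1st percentile of all genes. The change was 0.82 (95% interval -0.58 to 2.22; adjusted p = 0.393) in control livers, and in null livers it rose by 2.15 (0.76 to 3.55; 4.45-fold; adjusted p = 0.0391). Without null tunicamycin replicate 2 the null rise was 2.48 ± 0.70 (adjusted p = 0.0339). The null call was lost in 11 of 27 alternative settings, among them leaving out null vehicle replicate 2 (1.69, adjusted p = 0.130) and null tunicamycin replicate 1 (1.92, adjusted p = 0.109), and in the fit of all probe sets (adjusted p = 0.0586).

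The arrays ranked by Gapdh 5′ to 3′ ratio in the reverse order of Egr1 within 3 of the 4 groups. In control vehicle livers the ratio was 0.774, 0.352 and 0.459 in replicates 1, 2 and 3, so the array with the lowest ratio had the highest Egr1 and the array with the highest ratio the lowest Egr1. In null vehicle livers it was 0.181, 0.642 and 0.293, with the same reversed order. In control tunicamycin livers it was 0.577, 0.523 and 0.569, again in the reversed order of Egr1. The ratios of that group were close, as were its 2 higher Egr1 values (10.78 and 10.77), so its order carries little weight. In null tunicamycin livers it was 0.37, 0.40 and 0.435, and the order did not hold. With that ratio as a covariate the Egr1 change was 0.96 (adjusted p = 0.0674) in control livers and 2.30 (adjusted p = 0.00144) in null livers. The Egr1 difference of null from control livers was then -1.63 under vehicle, beside -0.86 without the covariate. Under tunicamycin it was -0.29, beside 0.47 without the covariate, and neither difference was called. With the actin ratio as the covariate instead, the difference was -0.31 under vehicle and 0.51 under tunicamycin, and again neither was called. The Egr1 change was then 1.74 (adjusted p = 0.209) in control livers and 2.56 (adjusted p = 0.0261) in null livers. The sign change under tunicamycin was thus seen with the Gapdh ratio and not with the actin ratio. The part of RNA length or tissue handling in the Egr1 spread was not tested.

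**Figure D3:**
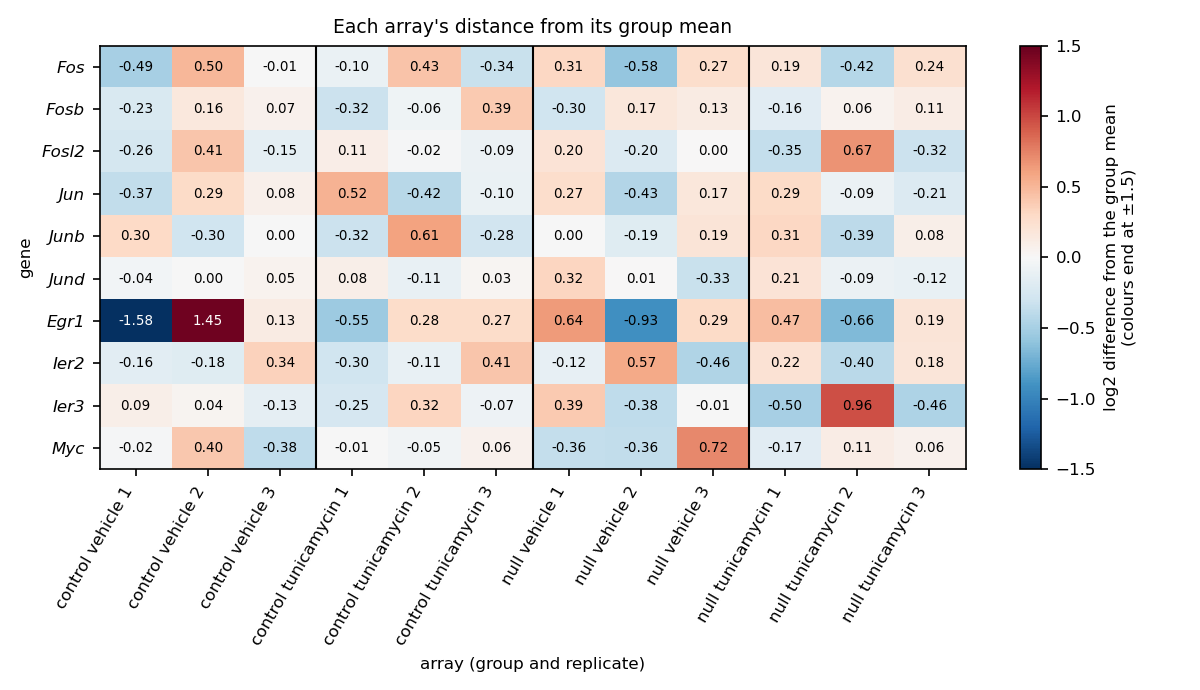
Difference of each array (x axis, group and replicate) from its group mean, in log2 units, for each gene (y axis); red is above and blue below the mean. Egr1 departs by -1.58 and 1.45 in control vehicle replicates 1 and 2, and Ier3 by 0.96 in null tunicamycin replicate 2.

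Several of the 10 genes were high or low on the same arrays. Control vehicle replicate 2 was the highest of its group for 6 genes (Fos, Fosb, Fosl2, Jun, Egr1 and Myc), and replicate 1 the lowest for 6 (Fos, Fosb, Fosl2, Jun, Jund and Egr1). In the null vehicle group replicate 1 was the highest for 6 (Fos, Fosl2, Jun, Jund, Egr1 and Ier3) and replicate 2 the lowest for 7 (Fos, Fosl2, Jun, Junb, Egr1, Ier3 and Myc). These are the arrays with the extreme Gapdh ratios of their groups. Other genes did not follow: Ier2 and Fosb were highest in null vehicle replicate 2, Fosb was lowest in null vehicle replicate 1, Junb and Ier3 were highest in control vehicle replicate 1, and Junb and Ier2 were lowest in control vehicle replicate 2. Control tunicamycin replicate 2 and null tunicamycin replicate 1 had the lowest ratios of their groups. They were highest for 4 and 5 genes and lowest for 3 and 4. Control tunicamycin replicate 1 and null tunicamycin replicate 3 had the highest ratios. They were highest for 3 and 2 genes and lowest for 5 and 2. The share of all genes highest or lowest on each array was not counted, so this is not shown to be particular to the 10 genes.

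Ier2, a short-lived nuclear response factor, fell in control livers and had no called change in null livers. It read 8.91, 8.89 and 9.41 in control vehicle and 7.83, 8.03 and 8.55 in control tunicamycin livers. It read 8.78, 9.47 and 8.44 in null vehicle and 9.18, 8.56 and 9.15 in null tunicamycin livers. The control groups did not overlap, and control tunicamycin livers also lay below all null tunicamycin livers. Deposited intensity averaged 490.4 ± 77.7 under vehicle and 290.04 ± 64.5 under tunicamycin in control livers (SD, n = 3). Ier2 fell by 0.93 ± 0.28 in control livers (adjusted p = 0.0314), and in null livers the change was 0.07 ± 0.28 (adjusted p = 0.903), or 0.27 without replicate 2. The control call was lost in 6 alternative settings: centred array medians (-0.76, adjusted p = 0.0900), values as deposited (-0.74, adjusted p = 0.122), a covariate for the 5′ to 3′ ratio of actin (-1.0, adjusted p = 0.141), and without control vehicle replicate 3 (-0.76, adjusted p = 0.117), control tunicamycin replicate 1 (-0.78, adjusted p = 0.117) or control tunicamycin replicate 2 (-0.88, adjusted p = 0.0970).

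Ier3, a stress response gene linked to cell survival, read 6.01, 5.96 and 5.79 in control vehicle, 5.43, 6.00 and 5.61 in control tunicamycin, 6.20, 5.42 and 5.80 in null vehicle and 5.87, 7.34 and 5.92 in null tunicamycin livers. The null tunicamycin group's highest array, 7.34, was again replicate 2, the one with kidney transcripts. The null change was 0.57 ± 0.34 with it (adjusted p = 0.294) and 0.09 ± 0.23 without it (adjusted p = 0.833). The control change was -0.24 ± 0.34 (adjusted p = 0.659).

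Myc had the largest change of the 10 genes in both genotypes. It read 6.17, 6.60 and 5.81 in control vehicle and 8.60, 8.56 and 8.67 in control tunicamycin livers. It read 5.71, 5.71 and 6.79 in null vehicle and 9.28, 9.56 and 9.51 in null tunicamycin livers. The 4 groups separated into both vehicle groups, which overlapped, then control tunicamycin, then null tunicamycin, with no overlap between the last 2. Deposited intensity averaged 57.2 ± 18.5 and 408 ± 27.4 in control vehicle and control tunicamycin livers, and 52.4 ± 27.1 and 736 ± 101.2 in null vehicle and null tunicamycin livers (SD, n = 3). Myc rose by 2.42 ± 0.28 (5.34-fold; adjusted p = 6.54e-05) in control livers and by 3.38 ± 0.28 (10.4-fold; adjusted p = 1.47e-05) in null livers. Without null tunicamycin replicate 2 the null rise was 3.34 ± 0.31 (adjusted p = 6.1e-05).

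Comparing null with control livers under tunicamycin asks whether loss of IRE1α shifts the level reached, and none of the 10 genes passed this test, where 0.755% of all genes were higher and 3.23% lower in null livers. Myc was 0.84 ± 0.28 log2 units higher in null livers (adjusted p = 0.141). Ier2 differed by 0.83 ± 0.28 (adjusted p = 0.164), Jun by 0.78 ± 0.27 (adjusted p = 0.167), Fosl2 by 0.56 ± 0.26 (adjusted p = 0.338) and Jund by 0.28 ± 0.17 (adjusted p = 0.477). These 5 genes did not overlap between the genotypes, which 21.8% of all genes also did not. Myc, Ier2 and Jun had an unadjusted p under 0.05. Egr1 differed by 0.47 ± 0.64, Ier3 by 0.70 ± 0.34, Fos by -0.34 ± 0.32, Junb by -0.25 ± 0.27 and Fosb by 0.02 ± 0.20. With the Gapdh 5′ to 3′ ratio as a covariate the Egr1 difference was -0.29, and with the actin ratio it was 0.51. Without null tunicamycin replicate 2 the differences of Myc, Ier2 and Jun were 0.79, 1.03 and 0.83 (adjusted p = 0.236, 0.0913 and 0.206), and that of Fosl2 was 0.23. Jund then differed by 0.33, Egr1 by 0.80, Ier3 by 0.22, Fos by -0.13, Junb by -0.06 and Fosb by -0.01. None of the Kupffer cell, macrophage, stellate cell or fibroblast markers was called between genotypes. Under tunicamycin 0 of 11 Kupffer cell and macrophage markers had a positive difference between null and control livers (median -0.66, and -0.51 without replicate 2), and under vehicle 1 of 11 did (-0.38). All 9 stellate cell and fibroblast markers had a positive difference under tunicamycin (median 0.31, and 0.36 without replicate 2). Their part in these results was not tested.

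The 2 tunicamycin responses share no arrays, while the comparison of genotypes under tunicamycin uses the arrays of both. The test of the difference between the responses called none of the 10 genes, and 0.837% of all genes. Of the genes called, 2 had a positive and 120 a negative value of the null response minus the control response. The null response minus the control response was 0.96 ± 0.39 for Myc (95% interval 0.11 to 1.81; adjusted p = 0.487) and 1.00 ± 0.40 for Ier2 (0.12 to 1.88; adjusted p = 0.484), and these 2 had an unadjusted p under 0.05. For Egr1 it was 1.33 (-0.64 to 3.31), for Jun 0.46 (-0.38 to 1.29) and for Jund 0.42 (-0.10 to 0.94), and for the other 5 it lay between -0.07 and 0.81. Without null tunicamycin replicate 2 it was 0.91 for Myc and 1.21 for Ier2 (adjusted p = 0.579 and 0.295), and again none of the 10 was called. The calls of Jund, Egr1 and Ier2 in 1 genotype alone are therefore not shown to differ between genotypes. The point estimate was positive for 9 of the 10 genes (8 without replicate 2, where Fosl2 was -0.02 and Fosb -0.10), and its median was 0.57 (0.48 without replicate 2) beside 0.03 over all genes. It was also positive for 9 of 9 stellate cell and fibroblast markers, with a median of 0.47 (0.41 without replicate 2), and their part in the result was not tested.

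The genes whose pattern over the 12 arrays lay nearest to a called member are named by the root mean square difference of centred log2 values. For Myc these were 2410006H16Rik (0.36), Sgk1 (0.41) and Fancb (0.42), where the median over all genes was 1.57. For Jun they were Kctd15 (0.29), Nop56 (0.30) and Mab21l3 (0.31), with a median of 0.91. For Jund they were Rnps1 (0.14), Tra2b (0.15) and Mettl7b (0.16), with a median of 0.49. For Ier2 they were Pfn1 (0.20), Camsap3 (0.21) and Mcrip2 (0.24), with a median of 0.56. Nothing lay as near to Egr1, for which Zbtb16 (0.59), Zfas1 (0.69) and Trp53inp1 (0.70) came first, with a median of 1.18.

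Other genes of these pathways were read from lists named by function. The counts of each list stand beside 11.6% of all genes rising and 13.3% falling in control livers. In null livers 7.59% of all genes rose and 9.23% fell. Of 28 tested genes of the other immediate-early list, 7 rose and 5 fell in control livers and 7 rose and 3 fell in null livers, with 5 rising and 3 falling in both. Sgk1, a stress-responsive kinase, rose by 2.11 ± 0.23 in control and 2.65 in null livers, and Klf10, a zinc finger repressor, by 2.08 ± 0.23 and 2.06. Ets2, an ETS family factor, rose by 1.52 ± 0.19 and 1.46, and Btg2, an antiproliferative gene, rose by 1.98 in null livers. The test of the difference between the responses did not call Btg2. The list median was -0.11 in control and 0.20 in null livers, and 0.05 without replicate 2, beside -0.11 and -0.07 over all genes. Dusp1, the phosphatase that inactivates JNK and p38, was among those that fell in control livers (-1.70 ± 0.34; adjusted p = 0.00301) and was named after its values were seen. Its change in null livers was -0.92 ± 0.34 (adjusted p = 0.0839).

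Nr4a2, an orphan nuclear receptor of the same list, is given by its levels only. It read 4.74, 4.72 and 4.55 in control vehicle, 6.74, 7.31 and 6.18 in control tunicamycin, 4.99, 5.35 and 5.0 in null vehicle and 5.11, 5.27 and 5.33 in null tunicamycin livers. The control tunicamycin arrays stood above all the others. Over the other 9 arrays its mean was 5.01, just under the filter at 5.02, so it passed the filter only through the group where it was high. Its calls, included in the counts of its list, are no support for a difference. Dusp6, an ERK phosphatase, was higher in null than in control livers under tunicamycin (1.24 ± 0.30; adjusted p = 0.0398), a call lost in 11 alternative settings, 1 of them without null tunicamycin replicate 2 (1.28, adjusted p = 0.0658).

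Of 14 tested AP-1 partner factors, 3 rose and 1 fell in control livers and 2 rose and 1 fell in null livers (3 and 1 without replicate 2). The list median was 0.04 in control and 0.05 in null livers, and -0.20 without replicate 2, beside -0.11 and -0.07 over all genes. Atf3, a dimer partner of JUN, read 6.46, 6.07 and 6.24 in control vehicle and 12.002, 11.50 and 11.61 in control tunicamycin livers. It read 6.71, 6.03 and 6.11 in null vehicle and 12.07, 11.50 and 11.88 in null tunicamycin livers. Tunicamycin and vehicle arrays were far apart, and the genotypes overlapped. Its rise of 5.45 ± 0.22 in control (adjusted p = 3.95e-08) and 5.54 ± 0.22 in null livers (adjusted p = 1.63e-07) exceeded that of every one of the 10 genes. Mafk, a small MAF protein, rose by 1.30 and 1.20, Mafg fell by 1.09 and 0.88, and Atf2 rose by 1.12 ± 0.18 in control livers. The Atf2 change in null livers was 0.41 (adjusted p = 0.151), and the difference of the responses was not called (-0.71, adjusted p = 0.395).

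Of 16 tested kinases and factors upstream of AP-1, none rose, 3 fell in control livers and 1 fell in null livers. Over all genes 13.3% fell in control and 9.23% in null livers. The list medians were -0.16 and -0.09, near the -0.11 and -0.07 over all genes. Over the alternative settings, 0 to 3 rose and 1 to 4 fell in control livers, and 0 to 2 rose and 0 to 1 fell in null livers. Mapk14, which encodes the p38α kinase, fell by 0.73 in control and 0.56 in null livers, and the null call was lost in 4 alternative settings. Map3k1 (-0.69) and Mrtfb (-0.85), a cofactor of SRF, fell in control livers. Their changes in null livers were -0.21 (adjusted p = 0.327) and -0.07 (adjusted p = 0.834). The test of the difference between the responses called no gene of this list. With the mean of each gene's probe sets the control changes of Map3k1 and Mrtfb were -0.38 (adjusted p = 0.0613) and -0.28 (adjusted p = 0.131). Map3k1 also missed the threshold with the values as deposited (-0.52, adjusted p = 0.0530), and Mrtfb with the actin ratio in the fit (-0.50, adjusted p = 0.141). Mrtfb was also 0.72 higher in null than in control livers under tunicamycin (adjusted p = 0.0444), a call lost in 13 alternative settings, 1 of them without null tunicamycin replicate 2 (0.75, adjusted p = 0.0700). Of the 7 tested AP-1 target genes none was called in control livers and Hbegf, an EGF receptor ligand, was called in null livers (0.87 ± 0.27; adjusted p = 0.0459). That call was lost in 14 alternative settings, including the one without null tunicamycin replicate 2. The median of the tested targets was -0.25 in control and -0.03 in null livers, and -0.12 without replicate 2. Over all genes the medians were -0.11 and -0.07. Of the 15 listed targets, 13 were on the array, and the others of those 13 were in the dimmest 30%.

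Among the MYC network factors, 1 antagonist of MYC, Mxd1, responded differently in the 2 genotypes. Its response was smaller in null livers, and 120 of the 122 genes called by the test of the difference also had a negative value. Of 15 tested network factors, 6 rose and none fell in control livers, and 2 rose and none fell in null livers (1 without replicate 2). The list median was 0.18 in control and 0.06 in null livers, and -0.03 without replicate 2, beside -0.11 and -0.07 over all genes. Mxd1, which competes with MYC for MAX, read 5.48, 6.28 and 5.56 in control vehicle, 9.13, 8.86 and 8.15 in control tunicamycin, 6.26, 6.31 and 6.49 in null vehicle and 7.09, 6.91 and 6.83 in null tunicamycin livers. The null tunicamycin arrays lay between the vehicle arrays and the control tunicamycin arrays. Mxd1 rose by 2.94 ± 0.26 in control livers (adjusted p = 9.52e-06), and its null change was 0.59 ± 0.26 (adjusted p = 0.146). The difference of the responses was -2.35 ± 0.36 (adjusted p = 0.0150), and -2.28 without control tunicamycin replicate 2, where it missed the threshold (adjusted p = 0.0564). Without null tunicamycin replicate 2 it was -2.34 (adjusted p = 0.0170). Mycl, a MYC paralogue, rose in both genotypes (1.41 ± 0.25 and 1.62 ± 0.25; adjusted p = 0.00152 and 0.00114). Mnt rose by 0.79 ± 0.20 in control livers, and its null rise of 0.71 ± 0.20 was lost in 6 alternative settings, including the one without replicate 2. Mxd4 rose by 0.62 ± 0.14 in control livers and was 0.61 ± 0.14 lower in null than in control livers under tunicamycin (adjusted p = 0.0271), a call lost in 6 alternative settings, 1 of them without null tunicamycin replicate 2.

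Of 29 tested MYC target genes, 15 rose in control and 17 in null livers, 14 of them in both, and none fell. The list median was 0.55 in control and 0.58 in null livers, and 0.69 without replicate 2, beside -0.11 and -0.07 over all genes. Over the alternative settings between 9 and 16 of them rose in control livers and between 11 and 18 in null livers. The named genes include Rrp9 (1.5 ± 0.16) and Nop58 (2.88 ± 0.35) in control and Gnl3 (1.42 ± 0.15) and Nop56 (1.43 ± 0.17) in null livers, which encode nucleolar proteins. These genes rose in both genotypes.

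Within that list, 2 genes rose less in null livers by the test of the difference. Their direction was that of 120 of the 122 genes called by that test. Cad, which starts pyrimidine synthesis, read 6.32, 6.29 and 5.92 in control vehicle, 9.79, 9.70 and 9.57 in control tunicamycin, 6.95, 6.68 and 6.56 in null vehicle and 8.41, 8.05 and 8.45 in null tunicamycin livers. Srm, spermidine synthase, read 9.0, 8.99 and 9.09 in control vehicle, 11.68, 11.72 and 11.53 in control tunicamycin, 8.94, 8.91 and 8.96 in null vehicle and 10.15, 10.49 and 10.31 in null tunicamycin livers. For both genes the null tunicamycin arrays lay above all vehicle arrays and below all control tunicamycin arrays, whereas Myc read higher in the null than in the control tunicamycin arrays, by a difference that did not pass the test. Cad rose by 3.51 ± 0.17 in control (adjusted p = 1.02e-07) and 1.58 ± 0.17 in null livers (adjusted p = 8.6e-05), and the difference was -1.93 ± 0.24 (adjusted p = 0.00793). Srm rose by 2.62 ± 0.13 and 1.38 ± 0.13, and the difference was -1.24 ± 0.18 (adjusted p = 0.0136). Without control tunicamycin replicate 2 the difference of Srm missed the threshold (-1.19, adjusted p = 0.0540) and that of Cad did not (-1.92, adjusted p = 0.0456). Without null tunicamycin replicate 2 they were -1.81 for Cad and -1.32 for Srm (adjusted p = 0.00544 and 0.00712).

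**Figure D4:**
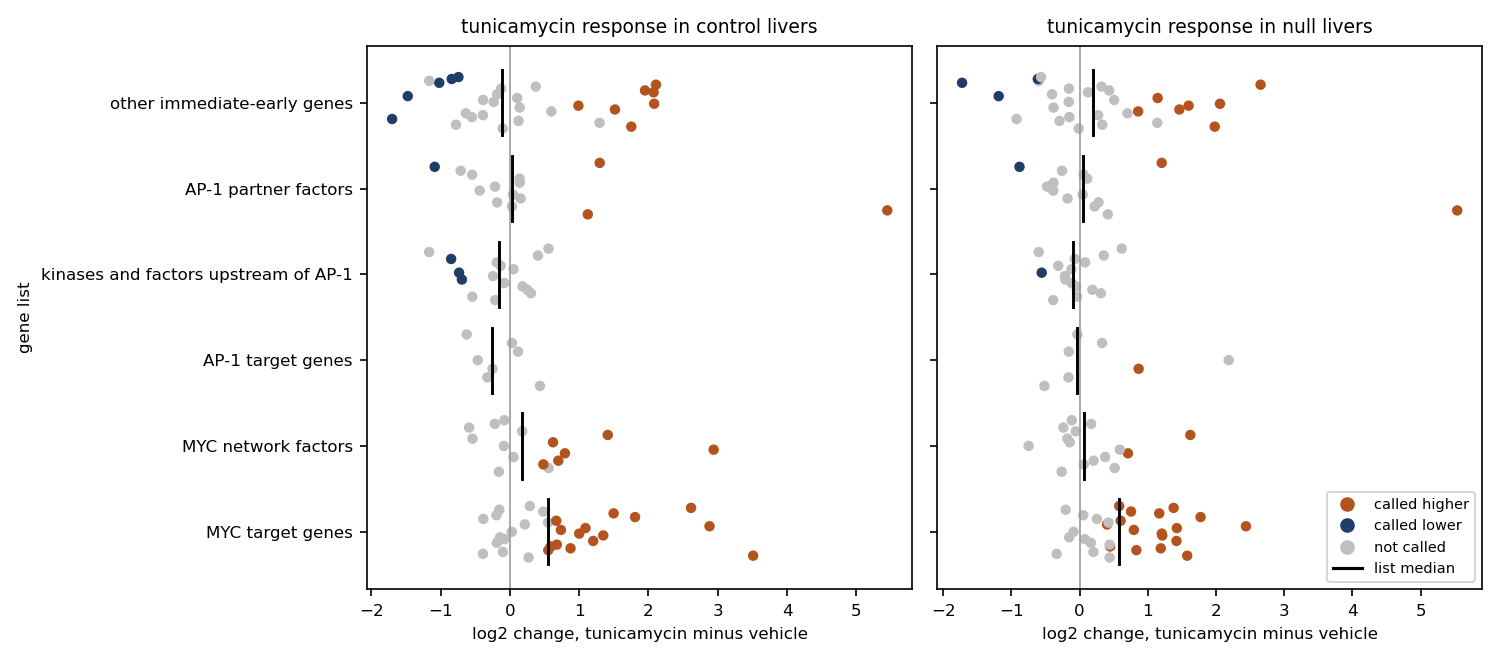
Change with tunicamycin (x axis, log2, tunicamycin minus vehicle) of every tested gene of each list (y axis), in control livers (left) and null livers (right); each point is a gene, colour gives the call and the black line is the list median. The AP-1 partner Atf3 stands apart at 5.45 and 5.54, and 15 and 17 of 29 MYC targets rose.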

How the data were processed

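RNA from 12 mouse livers was hybridised to Affymetrix Mouse430_2 arrays, 1 array per liver. The values used were the deposited intensities of the authors' value table. The values are linear, and the sources used here name neither the summary algorithm nor a scaling between arrays. Probe sets were named from the platform annotation: 34945 had 1 symbol, 932 several and 9160 none. After 64 control probe sets were left out, log2(intensity + 16) was quantile normalised, the dimmest 30% of probe sets were removed, and the brightest probe set of each gene was kept. Group means were fitted over all 12 arrays with limma 3.58.1 (lmFit, eBayes) in R 4.3.3, two-sided, with Benjamini-Hochberg adjustment over 14568 genes in each of 5 comparisons and a call at adjusted p under 0.05. A second fit took all 34945 probe sets with 1 symbol and no filter. The script was tested on simulated data. Groups came from the labels. The p-values test differences of group means against the spread of these animals within groups, moderated over all genes by eBayes.

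All members were named in every comparison. Of each list, up to 4 called genes with the smallest p were named, and of each member called, the 3 nearest genes. The values of Atf3, Mxd1, Cad, Srm and Nr4a2 by array were added after their results were seen. The members and lists were chosen with earlier results of these data known. Alternatives covered pseudocount, filter, scaling, choice of probe set, variance model, covariates, replicate block and each array left out.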

Additional observations from a re-analysis of the deposited data

How the results depend on the processing

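Under 27 alternatives to the settings above, 12 of which left out 1 array, 1307 of 1335 values of the 10 genes kept their side of the threshold. Of the others, 17 lost a call and 11 gained one, and no call reversed. Of 1135 values called under neither setting, all among the 1307, 34 changed sign. The calls of Myc and Jun in both genotypes and of Jund in null livers held in all 27. For Myc the range was 1.85 to 2.7 in control and 2.68 to 3.75 in null livers, and for Jun it was 0.94 to 1.55 and 1.44 to 1.87.

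For null against control livers under tunicamycin, where none of the 10 was called, 1 was called with a pseudocount of 64 (Myc, 0.77, adjusted p = 0.0296), 1 in a fit of only the groups compared (Myc, 0.84, adjusted p = 0.0270) and 2 with array quality weights (Jun, 0.96, adjusted p = 0.0322, and Ier2, 0.98, adjusted p = 0.0240). Leaving out 1 array gave 0 to 1, the 1 being Myc without null vehicle replicate 3 (adjusted p = 0.0356). The cause was not tested. The labels do not say whether the replicate numbers pair animals. Correlations of deviations from group means ran from -0.41 to 0.49 over 18 same-numbered pairs, and 5 were over 0.1. Their median was -0.05, beside -0.01 for differently numbered pairs, and 6 arrays correlated best with arrays of their own number. With 3 arrays per group these correlations cannot decide whether the arrays are paired. With the replicate number as a block, Egr1 in null livers lost its call (2.15, adjusted p = 0.0596), Myc was 2.42 in control and 3.38 in null livers, and no other call of the 10 genes changed. Dim probe sets such as Fosb, which the 50% filter removed, are limited by background signal.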
